A study of Mus musculus with 2 samples.

Results

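The miR-29 family of the mouse consists of 4 microRNA genes in 2 clusters, Mir29a with Mir29b-1 and Mir29c with Mir29b-2. They were chosen by gene symbol in the GENCODE M21 annotation, and all 4 were found among the 2202 microRNA genes of the tables. The libraries were made from RNA shorter than 30 bases, from the left cerebral cortex of male mice aged 36 days. The mice were B6CASTF1/J, which are the offspring of a C57BL/6J by CAST cross and carry no engineered allele or treatment in the labels. The 2 libraries form 1 group, with replicate 2 from the animal numbered 4 and replicate 1 from the animal numbered 3, although both carry the same donor identifier. No second age or condition was sampled. The values below therefore give levels in the cortex at 1 age and the difference between 2 libraries. A change with neuronal maturation was not measured.

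MicroRNAs are cut from hairpins in longer transcripts, and 1 arm of the hairpin, the 5p or the 3p arm, is loaded into Argonaute to repress messenger RNAs. Bases 2 to 8 of the arm, the seed, do most of the pairing with the target. The 3p arm is the main product of the miR-29 hairpins. It is known for repressing collagens and other matrix genes, the DNA methyltransferase Dnmt3a, and pro-apoptotic genes in maturing neurons. In rodent brain miR-29 is known to be scarce in the embryo and to accumulate as neurons mature after birth, and astrocytes also express it.

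The mature sequences are shown because they set which reads of the family can be assigned to a gene. They are RefSeq sequences on GRCm38.p6, and capitals mark the seed. All 4 genes matched the reference.
miR-29a-3p: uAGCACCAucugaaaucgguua
miR-29b-3p: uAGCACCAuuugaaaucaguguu
miR-29c-3p: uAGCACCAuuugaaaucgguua
miR-29a-5p: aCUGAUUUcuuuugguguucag
miR-29b-1-5p: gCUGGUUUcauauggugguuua
miR-29b-2-5p: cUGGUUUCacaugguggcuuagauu
miR-29c-5p: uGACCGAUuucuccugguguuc

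The 3p arms of all 4 genes had the same seed, AGCACCA, and no other of the 1738 mature sequences in the reference table had it. The seeds of the 4 5p arms all differed. Counted from 1 at the 5′ end, miR-29a-3p and miR-29c-3p differed at 1 of 22 bases, C10U. Over the same 22 bases miR-29b-3p and miR-29c-3p differed at 3, A18G, G21U and U22A, all outside the seed. The 23 bases of miR-29b-3p were identical at Mir29b-1 and Mir29b-2. Its whole sequence therefore fits both loci. No other arm of the family occurred whole in another of the 2202 microRNA loci.

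The hairpins show how far this identity extends. Capitals mark the longest run that Mir29b-1 and Mir29b-2 have in common, and likewise for Mir29a and Mir29c.
Mir29b-1: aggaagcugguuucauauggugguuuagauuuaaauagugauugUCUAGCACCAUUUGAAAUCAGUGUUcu
Mir29b-2: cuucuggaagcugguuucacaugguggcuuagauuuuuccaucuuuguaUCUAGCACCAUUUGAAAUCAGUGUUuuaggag
Mir29a: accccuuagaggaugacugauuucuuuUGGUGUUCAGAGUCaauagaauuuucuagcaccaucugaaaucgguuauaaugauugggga
Mir29c: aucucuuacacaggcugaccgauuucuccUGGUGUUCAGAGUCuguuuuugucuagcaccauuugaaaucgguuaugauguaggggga

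The run common to the miR-29b hairpins was 25 bases long and held the whole 3p arm. A read that lies within these 25 bases cannot be placed at either locus alone. Reads that fit several loci stand in the multi-mapped entry of the tables and are missing from the gene counts. The counts at Mir29b-1 and Mir29b-2 therefore come from other reads, and the level of mature miR-29b cannot be read from them. Mir29c also has a run of 22 bases in common with Mir29b-1, which holds the first 17 bases of its 3p arm. A run of 19 bases in common with Mir29b-2 holds the same 17 bases. A shortened read within either run would fit more than 1 gene and be missing from the count of Mir29c. A whole miR-29c-3p read would fit neither miR-29b gene without mismatches. The run common to Mir29a and Mir29c was 14 bases long, and it lay in the 5p arm and the loop. The tables give 1 value for a whole hairpin, so the share of each arm was not measured.

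The clusters have the same order of genes. On chromosome 6 (mm10, minus strand), Mir29b-1 lies at chr6:31063023-31063093 and Mir29a at chr6:31062660-31062747, 275 bases further along the direction of transcription. Mir29b-1 overlaps an exon of the long non-coding RNA Gm27019 by 2 bases on its own strand, and Mir29a overlaps no other annotated gene. On chromosome 1 (plus strand), Mir29b-2 lies at chr1:195037040-195037120 and Mir29c at chr1:195037547-195037634, with 426 bases between them. Both lie whole within an exon of the non-coding transcript A330023F24Rik-204, and on the opposite strand within an exon of Cd46, which encodes a complement regulator. No member had an opposite-strand count in either library. A count of 0 allows up to 3 counts, which is 0.748 CPM for replicate 2 and 0.702 CPM for replicate 1.

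**Figure D1:**
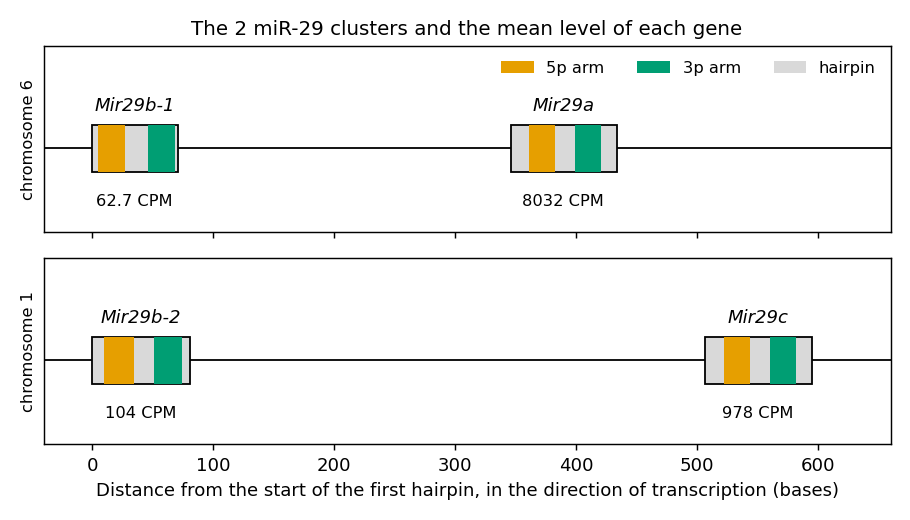
Map of the 2 miR-29 clusters, drawn to scale in bases from the start of the first hairpin in the direction of transcription (horizontal axis), with hairpins in grey, 5p arms in orange and 3p arms in green, and the mean CPM of 2 libraries under each gene. In both clusters the miR-29b gene comes first and has the lower level, 62.7 CPM beside 8032 CPM for Mir29a and 104 CPM beside 978 CPM for Mir29c. The miR-29b values lack the 3p reads that fit both loci.

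Levels are in CPM, own-strand counts per 1000000 such counts at all microRNA genes of the library. Replicate 2 had 4010274 own-strand counts in all and replicate 1 had 4273791. Exact 95% binomial intervals are given for single libraries and cover counting error only. All 4 members reached 10 CPM in both libraries, as did 13.6% of the 2202 genes. Mir29a had by far the highest gene count. It had 31319 counts in replicate 2, or 7810 CPM (interval 7724 to 7896), and 35280 counts in replicate 1, or 8255 CPM (8169 to 8341). It ranked 27 in replicate 2 and 28 in replicate 1, and its mean was 8032 ± 315 CPM (SD, n = 2). Mir29c, whose 3p arm differs from that of Mir29a at the single base above, came next. It had 3286 counts in replicate 2, or 819 CPM (792 to 848), and 4857 counts in replicate 1, or 1136 CPM (1105 to 1169), with a mean of 978 ± 224 CPM (SD, n = 2). Its rank was 101 in replicate 2 and 96 in replicate 1.

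The miR-29b genes stood much lower. Mir29b-2 had 439 counts in replicate 2, or 109 CPM (99.5 to 120), and 424 counts in replicate 1, or 99.2 CPM (90.0 to 109). Its mean was 104 ± 7.25 CPM (SD, n = 2), with ranks of 195 in replicate 2 and 204 in replicate 1. Mir29b-1 had the lowest count of the family. It had 230 counts in replicate 2, or 57.4 CPM (50.2 to 65.3), and 291 counts in replicate 1, or 68.1 CPM (60.5 to 76.4), with a mean of 62.7 ± 7.59 CPM (SD, n = 2) and ranks of 226 and 217. The order Mir29a, Mir29c, Mir29b-2, Mir29b-1 was the same in both libraries, and no 2 genes had overlapping ranges. For all genes with counts, the median of the mean levels was 4.11 CPM.

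**Figure D2:**
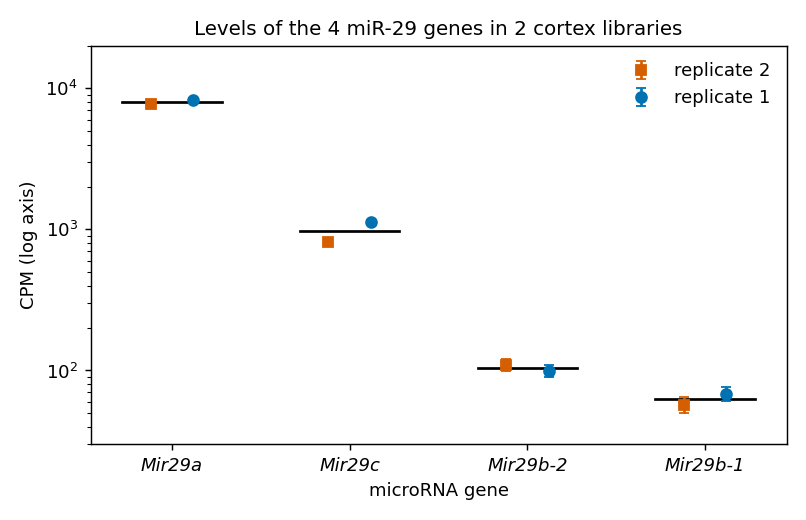
CPM (log axis) of the 4 miR-29 genes, with a square for replicate 2, a circle for replicate 1, bars for exact 95% binomial intervals and a black line for the mean. Mir29a lies at 7810 and 8255 CPM in replicates 2 and 1, and Mir29b-1 at 57.4 and 68.1 CPM.

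**Figure D3:**
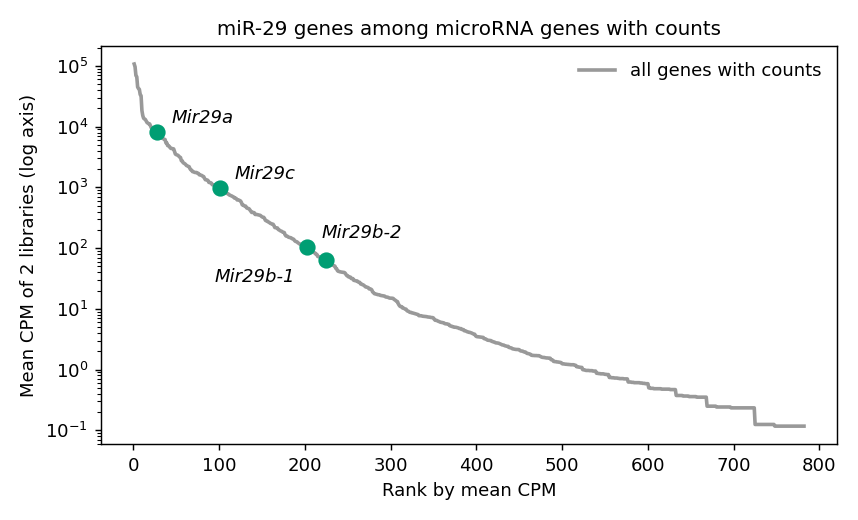
Mean CPM of 2 libraries (log axis) against rank for the 782 microRNA genes with counts, with the miR-29 genes as green points. Mir29a has rank 28 by mean, Mir29c 101, Mir29b-2 202 and Mir29b-1 225.

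Within a library the ratio of 2 genes needs no scaling. Mir29a had 9.53 times the counts of Mir29c in replicate 2 and 7.26 times in replicate 1. Mir29c in turn had 7.49 times the counts of Mir29b-2 in replicate 2 and 11.5 times in replicate 1. The miR-29b genes were closest to each other. Mir29b-2 exceeded Mir29b-1 by a log2 ratio of 0.93 (0.70 to 1.17) in replicate 2 and 0.54 (0.32 to 0.76) in replicate 1. All these differences between neighbours in the order exceeded counting error in both libraries. Each read is a whole short RNA, so levels were not divided by length. Divided by hairpin length, which runs from 71 to 88 bases, the order was unchanged, at 91.3 CPM per base for Mir29a, 11.1 for Mir29c, 1.29 for Mir29b-2 and 0.883 for Mir29b-1.

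The family made up 0.880% of the own-strand counts in replicate 2 and 0.956% in replicate 1, which is 8796 and 9559 CPM. Mir29a alone gave 88.8% of the family's counts in replicate 2 (88.5 to 89.1) and 86.4% in replicate 1 (86.0 to 86.7). Mir29c gave 9.32% in replicate 2 (9.01 to 9.62) and 11.9% in replicate 1 (11.6 to 12.2). The intervals of the libraries did not overlap for either gene. By cluster, Mir29a with Mir29b-1 gave 88.3% ± 1.67 of the family and Mir29c with Mir29b-2 gave 11.7% ± 1.67 (SD, n = 2). Both miR-29b genes together gave 1.90% in replicate 2 (1.76 to 2.04) and 1.75% in replicate 1 (1.63 to 1.88). These shares hold for reads assigned to 1 gene, so that of miR-29b lacks the 3p reads that fit both of its loci.

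A comparison of replicate 2 with replicate 1 shows how stable the members were between libraries. It compares the libraries and not conditions, with 1 library on each side and no test. Log2 ratios were scaled by TMM, edgeR's trimmed mean of M-values, and computed for the 516 genes whose counts summed to at least 10. None of the 4 members differed by 2-fold or more, a size that 25.8% of the 516 genes reached. Mir29c was lower in replicate 2, with a log2 ratio of -0.43 (exact 95% interval -0.50 to -0.37). Its distance from 0 was close to the median of 0.46 over the 309 genes with 100 or more counts. Mir29a was nearly level, with -0.04 (-0.06 to -0.02), and only 4.53% of those 309 genes had a smaller absolute ratio. Mir29b-1 had -0.21 (-0.46 to 0.05) and Mir29b-2 0.18 (-0.01 to 0.38). Both intervals included 0 with this scaling. With DESeq2 size factors Mir29b-2 had 0.22 (0.02 to 0.41), and with totals over all reads Mir29b-1 had -0.30 (-0.55 to -0.04), so these calls changed with the scaling. The interval thus lay wholly below 0 for 2 of the 4 members, as for 31.8% of the 516 genes. It lay wholly above 0 for none of them, against 28.7% of the 516 genes. The Mir29a call was lost with DESeq2 size factors, where the ratio was -0.0032 (-0.03 to 0.02).

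**Figure D4:**
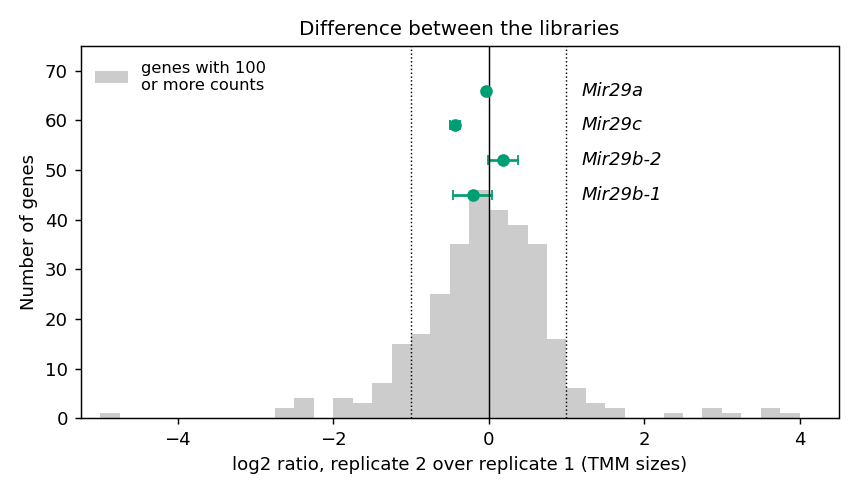
Histogram of log2 ratios, replicate 2 over replicate 1, scaled by TMM (horizontal axis), for genes with 100 or more counts and counts in both libraries, with the 4 miR-29 genes as green points above it, set at arbitrary heights, and bars for exact 95% intervals. The dotted lines mark a 2-fold difference, and all 4 genes lie between them, from -0.43 for Mir29c to 0.18 for Mir29b-2.

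The proportions within the family also moved, whatever the scaling. The log2 ratio of Mir29a to Mir29c was 3.25 in replicate 2 and 2.86 in replicate 1, a change of 0.39 (exact 95% interval 0.32 to 0.46). On chromosome 1, the log2 ratio of Mir29c to its neighbour Mir29b-2 was 2.90 in replicate 2 and 3.52 in replicate 1, a change of -0.61 (-0.82 to -0.41). On chromosome 6, that of Mir29a to Mir29b-1 was 7.09 in replicate 2 and 6.92 in replicate 1, a change of 0.17 (-0.09 to 0.42). The chromosome 1 pair therefore changed beyond counting error and the chromosome 6 pair was not seen to. The difference between these changes was not tested.

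Markers of cell types moved between the libraries as well. The neuronal list came to 53459 CPM for replicate 2 and 85535 CPM for replicate 1, with 6 of 9 genes detected, led by Mir132, an activity-dependent neuronal microRNA, at 42480 ± 17618 CPM (SD, n = 2). Mir132 alone gave 30022 CPM of the sum for replicate 2 and 54937 CPM for replicate 1. Of the 8 neuronal genes with enough counts, 5 had intervals below 0 and 2, Mir138-1 and Mir138-2, above 0. Over all 516 genes the shares were 31.8% below and 28.7% above. A 2-fold fall was reached by 3 of the 8, Mir128-1, Mir128-2 and Mir124a-3, and by 79 of the 516 genes. In either direction, 25.8% of the 516 genes differed by 2-fold or more. Mir124a-3 had only 4 counts in replicate 2 and 20 in replicate 1. Of all 2202 genes, 13.6% were detected. Mir124a-2, of the neuronal miR-124, was at 0 in both libraries and its copies were under 5 CPM. The miR-124 genes have the same 3p arm, so reads of it would be multi-mapped and these values give no level of miR-124. Mir128-1 with Mir128-2, and Mir138-1 with Mir138-2, are paired loci too. Whether each pair has an arm in common was not checked, so their counts may also lack reads. The oligodendrocyte list came to 3543 CPM for replicate 2 and 5098 CPM for replicate 1, with 2 of 3 genes detected. Its leading gene, Mir219a-2, which promotes oligodendrocyte differentiation, had a log2 ratio of -0.42. Mir338 had -0.59, while Mir219a-1 went the other way with 0.68, on 35 counts in replicate 2 and 24 in replicate 1. Genes of other lists had ratios like that of Mir219a-2, such as mural Mir145a with -0.42 and Mir18 of the progenitor list with -0.43. The mural list summed to 7691 and 5178 CPM in replicates 2 and 1, but its genes went opposite ways, with log2 ratios of 0.65 for Mir143, the leading gene, and -0.42 for Mir145a. Endothelial Mir126a stood at 10799 and 11394 CPM. For microglia and leukocytes, with 4 of 5 genes detected and Mir150 leading, the sums were 2065 CPM (replicate 2) and 2228 CPM (replicate 1). Genes of that list moved apart, with log2 ratios of -0.25 for Mir150, -0.01 for Mir142, 0.19 for Mir146 and 0.27 for Mir155. Mir223 had 2 counts in replicate 2 and 70 in replicate 1, a log2 ratio of -5.00. Red-cell genes came to 794 CPM for replicate 2 and 83.5 CPM for replicate 1. Mir451a gave 726 CPM of the sum for replicate 2 and 47.0 CPM for replicate 1, where Mir486 gave 26.7 CPM. Mir144 was also higher in replicate 2, and Mir486 had a log2 ratio of -0.18. Markers of other organs were low. The striated muscle list, led by Mir206, summed to 29.9 and 80.5 CPM in replicates 2 and 1, liver Mir122 to 79.8 and 47.5 CPM, and the Hox-embedded list of the trunk, led by Mir10b, to 33.4 and 36.7 CPM. The muscle genes of miR-1 and miR-133a have copies too, so their low counts may lack multi-mapped reads. The part of these cell types and organs in the values of the miR-29 genes was not tested. In whole tissue, fewer cells of a type and less RNA per cell cannot be told apart.

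The list of microRNAs known to accumulate in the maturing brain, as miR-29 does, held let-7 and neuronal genes. Of its 21 genes, 18 were detected, and the median level was 3374 CPM. Mir29a lay above this median and the other 3 members below it, with the miR-29b genes counted without the 3p reads that fit both loci. Several let-7 genes of the list, such as Mirlet7a-1, Mirlet7c-2 and Mirlet7f-1, also have an arm that occurs whole at another locus. The median level may therefore lack reads as well. Of the 20 list genes with enough counts, 11 had intervals above 0 and 7 below 0, with a median log2 ratio of 0.24. Over all 516 genes the shares were 28.7% above and 31.8% below. That median pools 2 unlike parts. The neuronal genes had a median log2 ratio of -0.52, with 2 intervals above 0 and 5 below. Most let-7 genes were higher in replicate 2, such as Mirlet7i with 0.59, but Mirlet7c-2 had -0.10 and Mirlet7f-2 -0.23. Mirlet7g led the list at 96857 ± 19664 CPM (SD, n = 2). The list of progenitor microRNAs, from the miR-17 and miR-106b clusters, had 7 of 9 genes detected and a median of 215 CPM, led by Mir93 at 1519 ± 448 CPM (SD, n = 2). Of its 7 genes with enough counts, 3 had intervals above 0 and 3 below 0, against the same 28.7% and 31.8% of all genes. The median log2 ratio was -0.06 for this list, -0.12 for the 4 miR-29 genes and -0.04 for all genes with 10 or more counts.

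Mir29b-1 and Mir29b-2 were set beside other genes that have a mature arm in common with another locus and a cluster neighbour with arms of its own. For Mir29b-1 over Mir29a the log2 ratio of counts was -7.09 (-7.28 to -6.90) in replicate 2 and -6.92 (-7.09 to -6.76) in replicate 1. For Mir29b-2 over Mir29c it was -2.90 (-3.05 to -2.76) in replicate 2 and -3.52 (-3.66 to -3.37) in replicate 1. Of 13 other such pairs, the copied gene was lower than its neighbour beyond counting error in both libraries in 12, and higher in 0. In the other pair, Mir19b-1 and Mir19a, both genes had no counts. Over the 11 pairs with counts of both genes, the mean log2 ratio ran from -9.07 to -0.60, with a median of -5.36. It was lower than that of Mir29b-1 in 3 of the 11 and lower than that of Mir29b-2 in 8. Among the pairs with the most counts, it was -5.36 for Mirlet7c-2 beside Mirlet7b, -6.50 for Mirlet7a-1 and -7.57 for Mirlet7f-1 beside Mirlet7d, and -9.07 for Mir24-1 beside Mir23b. That pair differed widely between the libraries, with -10.27 in replicate 2 and -7.88 in replicate 1. By the mature arms that the reference lists under each gene, 14 of the 15 copied genes had one that occurs whole at another locus. None of the 12 neighbours had one. Among the copied genes the exception was Mirlet7a-2. Arms not listed under a gene were not searched, so Mirlet7a-2 was not shown to lack a copied arm. The pairs come from the same 2 libraries, and several belong to the same families. Mirlet7d, Mir99a and Mir100 each serve as neighbour more than once. Cluster pairs without a copied gene were not compared, so there is no background share for the 12 of 13. Multi-mapped reads are left out of gene counts, and the pairs were picked for a copied arm in only one gene. A lower count of the copied gene was therefore likely from the choice of pairs alone.

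**Figure D5:**
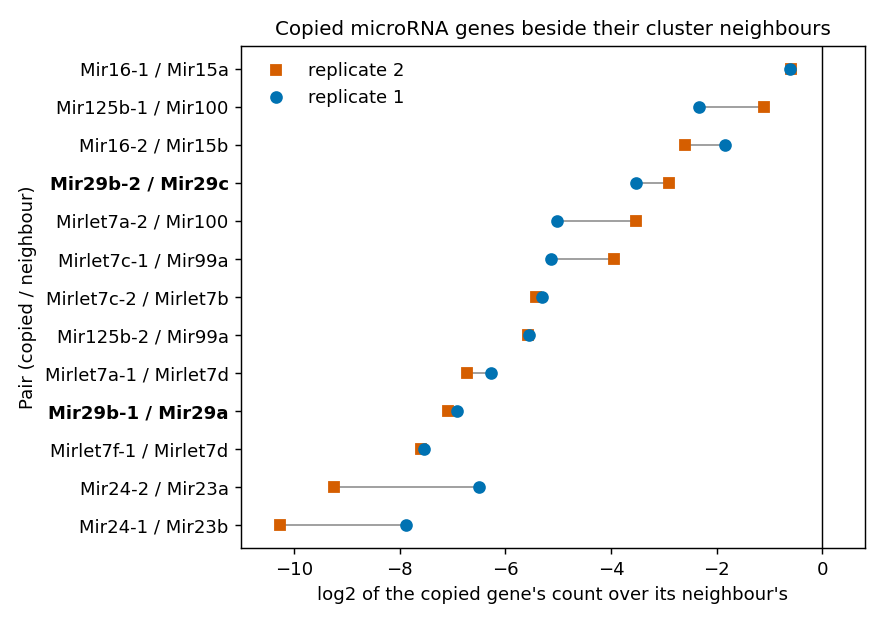
Log2 ratio of the count of a copied microRNA gene to that of its cluster neighbour (horizontal axis) for the 13 pairs with counts of both genes, with a square for replicate 2 and a circle for replicate 1, and the miR-29 pairs in bold. All points lie below 0, with Mir29b-1 / Mir29a at -7.09 and -6.92 and Mir29b-2 / Mir29c at -2.90 and -3.52 in replicates 2 and 1.

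The genes nearest to each member in level were found by Euclidean distance of log2(CPM + 1) over 2 libraries, which says no more than that their levels were alike. For Mir29a they were Mir30d at 8506 ± 460.2 CPM and Mir324 at 8254 ± 347 CPM, at distances of 0.12 and 0.13. For Mir29c they were Mir129-2 at 1061 ± 249 CPM and Mir1249 at 1016 ± 351 CPM, at distances of 0.17 and 0.18. For Mir29b-2 they were Mir483 at 107 ± 1.35 CPM and Mir1198 at 110.2 ± 1.37 CPM, at distances of 0.13 and 0.14. For Mir29b-1 they were Mir200b at 62.2 ± 10.7 CPM and Mir9-3 at 68.0 ± 7.69 CPM, at distances of 0.08 and 0.16 (SD, n = 2 throughout). Mir129-2 and Mir9-3 have at least 22 bases in common with another microRNA locus, as Mir29c has, so their counts may also lack reads.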

How the data were processed

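Small RNA was sequenced from 2 cortex libraries. The authors deposited 1 table of whole-number read counts per microRNA gene for each library, not normalized and mapped to mm10 with annotation M21, per the deposited description files. Neither the aligner nor the counter, trimming or any use of molecular tags is given in the sources. With no header in the tables, their 3 count columns were read from the layout as unstranded, own-strand and opposite-strand counts. The own-strand column was used. Entries without a gene name, 4 in each table, were left out of the totals. They held 39.9% (replicate 2) and 42.8% (replicate 1) of reads as multi-mapped, and 20.9% and 16.7% as unmapped. All 2202 identifiers matched GENCODE M21, and the RefSeq hairpins of all 4 members equalled the annotation's.

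CPM, log2 ratios with exact Clopper-Pearson intervals at 95%, and odds ratios (exact, conditional) were computed with SciPy 1.17.1 and NumPy 2.4.6 under Python 3.11.15. TMM sizes came from edgeR 4.0.16 in R 4.3.3 and the alternative size factors from DESeq2 1.42.0. With 1 group, no count model was used for a test. Interval calculations were tested on simulated counts. Named are the members, the 2 genes nearest in level to each, the leading gene of each list and the 4 other pairs with the most counts. Further list genes and exceptions named in the text were chosen after their values were seen. The members and lists were chosen with earlier results of these data known. Alternatives were other scalings, other minimum counts, the unstranded column, other totals, each library alone and division by hairpin length.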

Additional observations from a re-analysis of the deposited data

Results flagged for a closer look

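The entries for reads outside the genes give no value of a gene and enter only the alternative that takes totals over all reads, yet they hold far more than a count of 0 would allow. The multi-mapped entry took 39.9% of the reads of replicate 2 and 42.8% of those of replicate 1. Reads of miR-29b-3p fit both Mir29b-1 and Mir29b-2 and would stand in this entry, but the tables do not say how many of them it holds. A further 4.39% of the reads of replicate 2 and 4.56% of those of replicate 1 mapped once outside microRNA genes.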

How the results depend on the processing

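No paired analysis was possible because both libraries belong to 1 group. The log2 ratio between the libraries has no value without either of them. With totals over all reads, mean levels were 2842 CPM for Mir29a, 347 for Mir29c, 36.9 for Mir29b-2, 22.2 for Mir29b-1 and 3247 for the family. Without the most abundant gene in the total, they were 9012 CPM for Mir29a, 117 for Mir29b-2, 70.5 for Mir29b-1 and 10300 for the family. In the unstranded column, whose total is smaller, they were 8663 CPM for Mir29a, 112.6 for Mir29b-2 and 9898 for the family. These totals rescale all 4 genes alike and leave their order as it is. Between the libraries, Mir29a had a log2 ratio of -0.0032 with DESeq2 size factors, with an interval that included 0. Mir29b-2 had 0.22 with these factors and Mir29b-1 -0.30 with totals over all reads, both with intervals that left out 0; the cause was not tested. Genes past a 2-fold difference numbered 329 of 782 with no minimum count and 53 of 309 with 100 or more counts, against 133 of 516. Divided by hairpin length, chosen after seeing the data, the log2 ratio of Mir29b-1 over Mir29a was -6.70. At 1 CPM 464 genes and all 4 members were detected, and at 100 CPM 192 genes, with Mir29a and Mir29c among them. Depth limits the miR-29b genes most, with 230 to 439 counts a library.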
